A study of Mus musculus with 5 samples.

Results

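Long noncoding RNAs are transcripts of gene length that encode no protein, and 9 of them were followed here by symbol: Malat1, Neat1, H19, Meg3, Gas5, Snhg1, Snhg8, Snhg12 and Pvt1. All 9 were found among the 55250 symbols of the table, of which 12449 are annotated as long noncoding RNAs in GENCODE M21. Levels were compared between 2 tumor libraries (replicates 2 and 3) and 3 lung libraries (replicates 1, 2 and 3). Every library is labelled as sorted polymorphonuclear myeloid-derived suppressor cells (PMN-MDSCs, neutrophil-lineage cells that restrain T cells) of wild-type mice, each from at least 2000000 cells and stated as 20000000 paired reads. The labels name no strain, age, sex, tumor model or sort markers, and do not say that the libraries came from separate animals. The p-values therefore speak only to spread among these libraries, part of which may be technical. The series title places the samples in a study of galectin-1, STING in the tumor and recruitment of these cells in metastasis.

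Levels are in TPM, the abundance of a transcript corrected for its length and scaled so that each library sums to 1000000, so levels of different genes can be set side by side. Differences are tumor minus lung on the log2(TPM + 1) scale with their standard error. Adjusted p-values are from limma over the 16387 genes that averaged 1 TPM or more, and calls needed an adjusted p below 0.05 together with a change of 1.5-fold or more. The total of reads is a stated figure, the same for every library, and TPM does not give the reads behind a gene, so counting error per value is unknown.

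Markers of the labelled cell type were low in the tumor libraries. Of 20 neutrophil markers all 20 were called lower in tumor, with sums of 1303 and 4305 TPM in tumor libraries and 40054 to 66067 TPM in lung libraries. Of 30 pan-leukocyte genes all 30 were lower, with sums of 910.3 and 2477 TPM in tumor libraries and 17025 to 17767 TPM in lung libraries. Of 18 epithelial markers 16 were higher, with sums of 7206 and 7272 TPM in tumor libraries and 128 to 193 TPM in lung libraries, and 6 of 10 fibroblast markers were higher, with sums of 1270.5 and 232 TPM in tumor libraries and 25.8 to 33.2 TPM in lung libraries. None of these markers was at 0 throughout either group. Macrophage markers were higher for 4 and lower for 3 of 10. Over all tested genes, 31.6% were higher and 27% lower. All 8 B cell and all 10 endothelial markers, 7 of 8 lung epithelial markers and 2 of 4 tested T cell markers were lower, and 3 lung epithelial markers were at 0 in both tumor libraries. Fewer cells of a type and less RNA per cell cannot be told apart in these bulk libraries, and the part of these markers in the results below was not tested, apart from the values given under centring on the pan-leukocyte genes.

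Malat1 and Neat1 are neighbouring nuclear RNAs. Malat1 concentrates at nuclear speckles, which store splicing factors, and Neat1 is the scaffold of paraspeckles, nuclear bodies that hold RNA-binding proteins. The snoRNA host genes Gas5, Snhg1, Snhg8 and Snhg12 carry small nucleolar RNAs in their introns, which guide chemical modification of ribosomal and other RNA, while the spliced exons are exported and, for hosts such as Gas5 and Snhg1, are known to be removed by nonsense-mediated decay. H19 and Meg3 are imprinted genes transcribed from the maternal chromosome, and Pvt1 lies next to the Myc oncogene.

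Of the 8 members that were tested, 5 were higher in tumor (H19, Snhg1, Gas5, Snhg8 and Snhg12), where 31.6% of all tested genes were higher. Malat1 was lower, where 27% of all tested genes were lower. Together 6 of 8 were called, where 58.6% of all tested genes were. Neat1 and Pvt1 were not called, and Meg3 was not tested, since its mean over the 5 libraries was 0.997 TPM. The tumor values lay outside the lung range for all 8 tested members, as for 75.6% of all tested genes. They lay above it for 6 members (39.9% of all tested genes) and below it for Malat1 and Neat1 (35.7%). Each "lower" given here holds for TPM as deposited: with libraries centred on the pan-leukocyte genes, which moved the median of all tested genes to 2.99, 346 genes in all and 0 genes of the related lists were lower. The median difference of the 8 members was 1.09, against 0.018 for all tested genes. Of the members, 3 were higher in the fit without lung replicate 2. Fits without tumor replicate 2 or 3 rest on 1 tumor library, so a call lost there may reflect fewer libraries. Pvt1 passed the filter through its tumor values, with a lung mean of 0.872 TPM. A gene with a lung mean under 1 TPM passes only if its tumor mean is higher. This holds for Snhg16, Rpp40, Phlda2 and Xist below, with lung means of 0.683, 0.882, 0.490 and 0.0791 TPM. Other genes counted as higher in the lists passed in the same way. Among annotated long noncoding RNAs, calls as lower in tumor outnumbered calls as higher. Of 1373 tested, 109 (7.94%) were higher and 660 (48.1%) were lower in tumor, with a median difference of -1.10. The summed TPM of all 12449 annotated ones overlapped between groups, at 48811 and 40645 in tumor libraries and 32358 to 48828 in lung libraries.

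**Figure D1:**
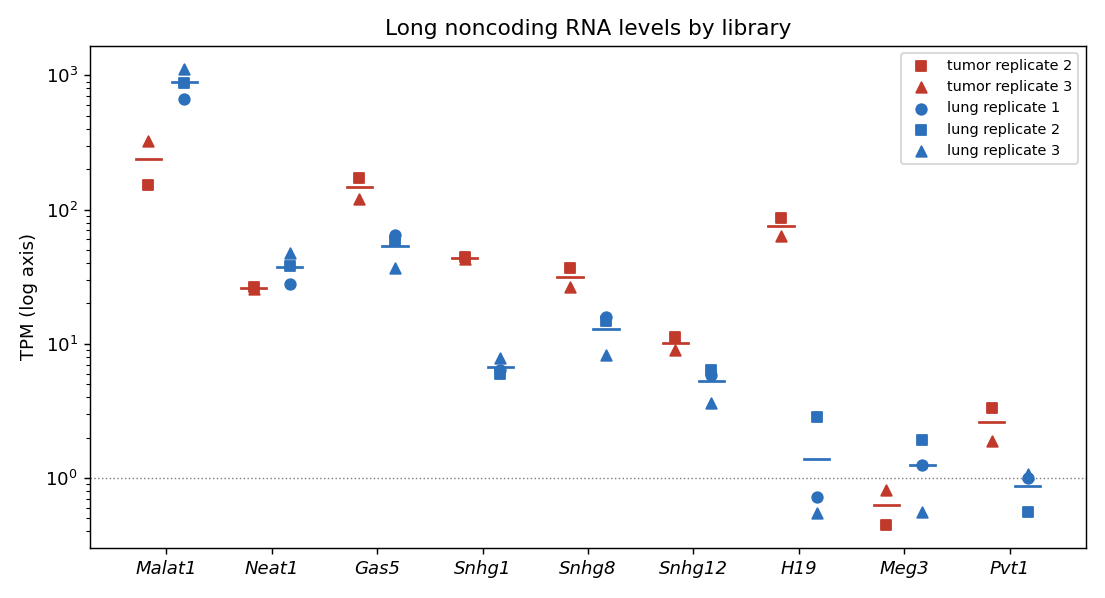
Level of each long noncoding RNA in TPM (log axis) in each library, tumor in red and lung in blue, with a short line at the group mean and a dotted line at 1 TPM. Malat1 sat at 154 and 324 TPM in tumor and at 671 to 1121 TPM in lung, whereas H19 sat at 87.1 and 63.0 TPM in tumor and at 0.548 to 2.87 TPM in lung.

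The label "abundant" held for some members. Malat1 ranked 22 and 12 among long noncoding RNAs in the tumor libraries and 5 in each lung library. Gas5 ranked 20 and 24 in tumor, against 45 to 99 in lung. H19 ranked 32 and 43 in tumor, against 686 to 2717 in lung. Meg3 and Pvt1 were scarce in both tissues, at ranks 1249 and 1071 in tumor and 938 to 2682 in lung for Meg3, and at 288 and 512 in tumor and 1408 to 2256 in lung for Pvt1. The 9 members together made up 1.10% and 1.51% of long noncoding RNA TPM in tumor, against 2.45% to 2.63% in lung, most of it Malat1 in lung.

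Malat1 was the most abundant member in every lung library. It was at 154 and 324 TPM in tumor and at 671, 880.2 and 1121 TPM in lung. Both tumor values lay below all lung values, and the higher tumor value was 2.11 times the lower. The means were 239 ± 121 TPM in tumor and 891 ± 226 TPM in lung (SD, n = 2 and n = 3), 3.73-fold lower in tumor, a difference of -1.96 ± 0.40 (adjusted p = 0.0107). Tumor replicate 3, with the higher Malat1, also had the higher pan-leukocyte and neutrophil sums. Its Ptprc, which encodes the leukocyte surface protein CD45, was at 75.3 TPM against 18.5 TPM in tumor replicate 2. Tumor replicate 3 further had the higher macrophage sum (2720 against 1157 TPM) and the lower fibroblast sum (232 against 1270.5 TPM). Its share of mitochondrially encoded TPM was higher too (15.1% against 9.01%). Whether any of these bears on Malat1 was not tested. The Malat1 call ended without tumor replicate 2 (-1.42, adjusted p = 0.0598), without lung replicate 2 (-1.95, adjusted p = 0.0512) and without lung replicate 3 (-1.78, adjusted p = 0.0513). Under the pan-leukocyte centring Malat1 turned to 1.56 (adjusted p = 0.0111), below the median of all tested genes under that centring, 2.99.

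Neat1 moved less. It was at 26.5 and 25.4 TPM in tumor and at 27.9, 37.8 and 47.3 TPM in lung. The tumor values were close to each other and just under the lowest lung value. The difference of -0.49 ± 0.25 did not pass (adjusted p = 0.154), and it passed as lower without lung replicate 1 (-0.68, adjusted p = 0.0436). Values were deposited per gene, so the long Neat1 isoform, which builds paraspeckles, and the shorter isoforms (711 to 20771 bases over 4 annotated transcripts) cannot be told apart here. Malat1 spans chromosome 19 from 5795690 to 5802672 and Neat1 from 5824708 to 5845478, both on the minus strand of GRCm38 by GENCODE M21, with 22035 bases between them.

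The ratio of Neat1 to Malat1 within a library does not depend on how libraries are scaled. Its log2 value was -2.53 and -3.67 in tumor, against -4.59, -4.54 and -4.57 in lung. The lung libraries were nearly identical in this ratio, and both tumor libraries lay above them. The mean difference was 1.46 (exact permutation test, two-sided, p = 0.1, the smallest that 10 splits of 5 libraries allow, adjusted p = 0.2 over 6 ratios). It was 0.89 without tumor replicate 2 and 2.03 without tumor replicate 3.

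RNA levels of genes for proteins of the bodies that these RNAs occupy went both ways. Of 20 genes for nuclear speckle proteins 9 were higher and 7 lower, where 31.6% of all tested genes were higher and 27% lower. The list median was 0.30. The count of higher genes was 5 under TMM (trimmed mean of M values) or median-of-ratios rescaling, and 2 at a fold limit of 2. Srsf5, a splicing factor of the SR family, was at 120.5 and 127 TPM in tumor libraries and 401 to 422 TPM in lung libraries (-1.72), and Son, a core speckle protein, was at 43.8 and 57.6 TPM against 147 to 191 TPM (-1.72). The kinase gene Clk1, which phosphorylates SR proteins, was at 31.3 and 62.6 TPM in tumor libraries and 248 to 311 TPM in lung libraries (-2.61). Srsf1, another SR splicing factor, was higher, at 142 and 123 TPM in tumor libraries and 51.9 to 60.3 TPM in lung libraries (1.23). The adjusted p-value was 0.00123 for Srsf5 and 0.00267 for Srsf1. Without tumor replicate 2, 3 speckle genes were higher and 4 lower, and the counts were 5 higher without lung replicate 1, and 4 lower without lung replicate 2 or without tumor replicate 3.

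Of 16 genes for paraspeckle proteins 8 were higher and 1 lower, against 31.6% and 27% of all tested genes. The list median was 0.64. The lower gene was Sfpq, one of the proteins that Neat1 needs to form the body, at 85.1 and 89.3 TPM in tumor libraries and 137 to 188 TPM in lung libraries (-0.89 ± 0.18, adjusted p = 0.0115). It was not called without tumor replicate 2. Its partner Nono was higher, at 264 and 221 TPM in tumor libraries and 109 to 118 TPM in lung libraries (1.09 ± 0.15, adjusted p = 0.00347). Tardbp, which encodes the RNA-binding protein TDP-43, was at 216 and 165 TPM in tumor libraries and 44.9 to 58.1 TPM in lung libraries (1.84). Nudt21, a cleavage factor that sets the choice of poly(A) site, was at 40.9 and 31.0 TPM against 5.52 to 8.88 TPM (2.19), and Rbm14 was at 71.2 and 59.3 TPM against 22.8 to 29.2 TPM (1.34).

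The 3′ end of Malat1 is cut by RNase P and the small RNA released from it is trimmed by RNase Z. Of 9 tested genes of this machinery and of triple helix binding, 8 were higher in tumor and 0 lower. Over all tested genes, 31.6% were higher and 27% lower. Rpp30, an RNase P subunit, was at 27.6 and 23.2 TPM in tumor libraries and 2.59 to 5.32 TPM in lung libraries (2.49 ± 0.29, adjusted p = 0.00224). Elac2, the RNase Z, was at 26.4 and 19.7 TPM against 4.78 to 7.47 TPM (1.71). Mettl16, a methyltransferase that binds the Malat1 triple helix, was at 15.3 and 12.1 TPM in tumor libraries and 2.37 to 4.47 TPM in lung libraries (1.72). Rpp40, another RNase P subunit, was at 3.76 and 3.88 TPM against 0.743 to 1.09 TPM (1.36). Of the list, 4 genes were higher without tumor replicate 2. Rpph1, the RNA subunit of RNase P, was at 45.5 and 35.8 TPM in tumor libraries and 23.2 to 29.4 TPM in lung libraries (0.61 ± 0.19, adjusted p = 0.0417). That call was lost in 4 of the 5 fits on 4 libraries (adjusted p from 0.0541 to 0.161), all but the fit lacking tumor replicate 3.

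RNAs that lack a poly(A) tail bear on how libraries were selected, which the sources used here do not give. Of 9 tested, 3 were lower and 1 (Rpph1) higher, against 27% and 31.6% of all tested genes. Some of those not called were at 0 in 1 library or more. Rn7sk, the RNA that holds back the elongation factor P-TEFb, was at 21.98 and 42.2 TPM in tumor libraries and 98.0 to 217 TPM in lung libraries (-2.18, adjusted p = 0.0106). The call was lost in fits without tumor replicate 2 (adjusted p = 0.0865) and without lung replicate 3 (adjusted p = 0.0513). Rn7s1 and Rn7s2, copies of the signal recognition particle RNA, had the same values, so their reads cannot be divided between them. Both were at 242 and 411 TPM in tumor libraries and 809 to 906 TPM in lung libraries (-1.46). They are counted separately among the 3 lower RNAs but give 1 measurement.

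All 4 snoRNA hosts were called higher in tumor, where 31.6% of all tested genes were, and those of Snhg8 and Snhg12 were lost under median-of-ratios rescaling. With 1 library left out, Snhg8 lost its call in 3 of 5 fits and Snhg12 in 5 of 5. Their annotated start regions are shown because these 4 members were called in 1 direction and hosts of this class often begin with a run of pyrimidines. Each sequence holds the 50 bases before and the 50 bases after a RefSeq start on GRCm38.p6, and capitals mark a run of at least 5 C or T that begins with C within 5 bases of the start on the gene's own strand, a width chosen after the sequences were seen.
Gas5, chr1:161035116-161035215, plus strand: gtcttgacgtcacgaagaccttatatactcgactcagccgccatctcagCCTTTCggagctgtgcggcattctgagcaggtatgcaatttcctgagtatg
Snhg1, chr19:8723437-8723536, plus strand: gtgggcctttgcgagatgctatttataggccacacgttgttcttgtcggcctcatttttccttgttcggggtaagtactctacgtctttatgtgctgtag
Snhg8, chr3:123508287-123508386, minus strand: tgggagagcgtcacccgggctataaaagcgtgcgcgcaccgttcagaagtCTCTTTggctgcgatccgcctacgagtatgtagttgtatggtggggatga
Snhg12, chr4:132308628-132308727, plus strand: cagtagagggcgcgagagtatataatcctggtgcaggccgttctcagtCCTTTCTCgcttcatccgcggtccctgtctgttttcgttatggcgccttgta

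Such a run was found for Gas5, Snhg8 and Snhg12, not for Snhg1, and in 16.1% of 32851 promoter windows of the same length. Meg3 held one too, 5 bases before its first listed start. TATAAA or TATATA, on either strand of the window from 250 bases before to 50 bases after the start, stood in the windows of Gas5 (this start), Snhg1, Snhg8, Snhg12 and Meg3, and in 17.1% of all windows. CACGTG, the motif bound by Myc and related factors and the same on both strands, stood in none of the windows of the 6 members listed in the RefSeq table and in 7.15% of all windows. Gas5 has a second listed start upstream, which held none of these letters.

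Snhg1 showed the tightest change. It was at 44.1 and 42.9 TPM in tumor and at 6.39, 5.92 and 7.78 TPM in lung. Values within each tissue were close and the groups were far apart, with a 6.49-fold higher mean in tumor and a difference of 2.54 ± 0.18 (adjusted p = 0.00108). In the authors' deposited table Snhg1 was the only member with a false discovery rate under 0.05 (0.0407), where 0.638% of 34930 rows were under that limit. Malat1 had 0.168 and H19 had 0.292 in the authors' deposited table. Snhg1 lies on chromosome 19 from 8723475 to 8726443 on the plus strand, 105 bases from the start of Slc3a2, which runs the other way and encodes the heavy chain of amino acid transporters. Slc3a2 was lower, at 239 and 276 TPM in tumor libraries and 407 to 425 TPM in lung libraries (-0.69 ± 0.14, adjusted p = 0.0116).

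Gas5 accumulates in growth-arrested cells and can bind the glucocorticoid receptor. It was at 172 and 121 TPM in tumor and at 64.2, 58.5 and 36.8 TPM in lung. The groups did not overlap. The fold was 2.75 and the difference 1.46 ± 0.31 (adjusted p = 0.0125), a call that ended without tumor replicate 2 (1.21, adjusted p = 0.097). Gas5 lies on chromosome 1 from 161034422 to 161038539 on the plus strand. The first 428 bases of its span overlap Zbtb37 on the other strand, and whether the libraries kept strand is not given. Zbtb37 was at 2.22 and 3.72 TPM in tumor libraries and 2.42 to 6.70 TPM in lung libraries.

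Snhg8 and Snhg12 moved in the same direction with smaller differences. Snhg8 was at 36.9 and 26.4 TPM in tumor and at 15.9, 14.7 and 8.30 TPM in lung, a difference of 1.25 ± 0.33 (adjusted p = 0.0251). Snhg12 was at 11.3 and 9.05 TPM in tumor and at 5.90, 6.37 and 3.62 TPM in lung, a difference of 0.85 ± 0.28 (adjusted p = 0.0456). Neither pair of groups overlapped. The Snhg8 call ended without tumor replicate 2 (adjusted p = 0.169), tumor replicate 3 (adjusted p = 0.0745) or lung replicate 2 (adjusted p = 0.0634). The Snhg12 call was lost in each of the 5 fits on 4 libraries (adjusted p from 0.0703 to 0.248). Snhg8 lies on chromosome 3 from 123507552 to 123508404 on the minus strand and Snhg12 on chromosome 4 from 132308623 to 132311024 on the plus strand.

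Lung replicate 3 had the lowest Gas5, Snhg8 and Snhg12 of the lung libraries but the highest Snhg1. Across the 5 libraries Gas5 and Snhg8 had the most similar profiles among the members (distance 0.241 between centred log2 values), whereas Snhg1 was 1.48 from Gas5. The share of Snhg1 in the sum of the 4 hosts had log2 values of -2.58 and -2.21 in tumor against -3.85, -3.85 and -2.86 in lung. That of Snhg12 was -4.55 and -4.46 in tumor against -3.97, -3.75 and -3.97 in lung. Exact two-sided permutation p-values were 0.2 for Snhg1 and 0.1 for Snhg12, with adjusted p = 0.2 for both across the 6 ratios. The share of Gas5 was -0.62 and -0.72 in tumor against -0.53 to -0.62 in lung, and that of Snhg8 was -2.84 and -2.91 in tumor against -2.53 to -2.77 in lung (exact p = 0.2 each).

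**Figure D2:**
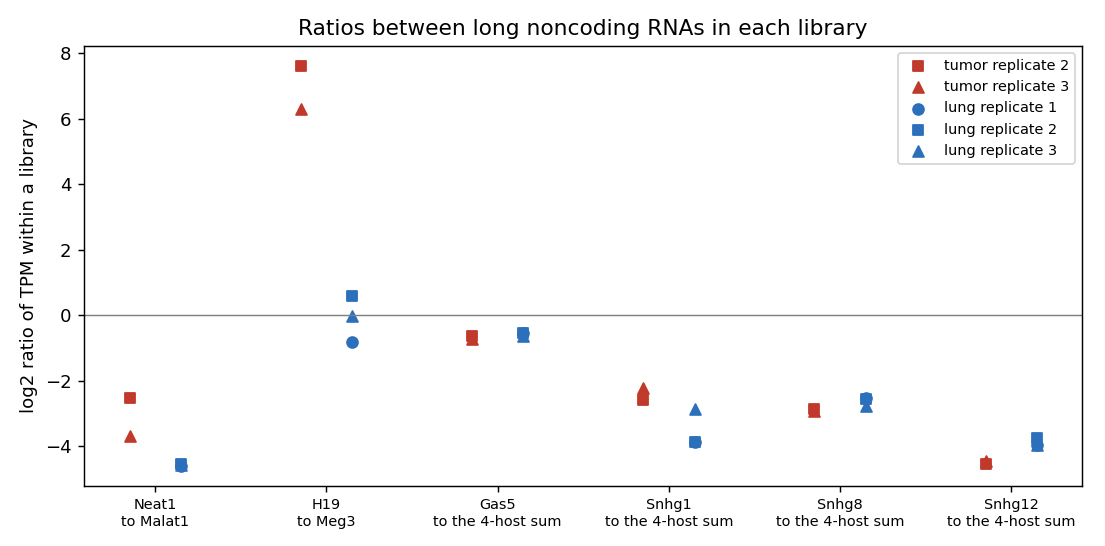
The log2 ratio of TPM within each library for Neat1 to Malat1, H19 to Meg3 and each of 4 snoRNA hosts to the sum of the 4, tumor in red and lung in blue. Neat1 to Malat1 was -4.59 to -4.54 in lung, below both tumor values, and H19 to Meg3 was 7.61 and 6.29 in tumor, above all lung values.

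The snoRNAs themselves were almost unseen. Of 21 snoRNAs annotated inside Gas5, Snhg1, Snhg8 and Snhg12 and present in the table, 1 was above 0 in any library. It was Snord22, inside Snhg1, at 15.5 TPM in lung replicate 1 and listed at 0 in the other 4 libraries. Values of such short RNAs are uncertain in a transcript-level quantification, and a value of 0 does not show that the RNA was absent.

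Other snoRNA host genes were higher for 7 of 13 tested and lower for 0, against 31.6% and 27% of all tested genes. The list median was 1.03. Snhg6 was at 77.8 and 73.1 TPM in tumor libraries and 3.77 to 8.87 TPM in lung libraries (3.44 ± 0.34, adjusted p = 0.00166). Epb41l4aos was at 27.7 and 19.7 TPM in tumor libraries and 3.26 to 4.85 TPM in lung libraries (2.34), Snhg4 at 11.5 and 9.14 TPM against 0.778 to 1.66 TPM (2.39) and Snhg16 at 4.81 and 5.04 TPM against 0.524 to 0.960 TPM (1.82). Zfas1, also a snoRNA host, was at 27.7 and 22.3 TPM in tumor libraries and 15.7 to 25.0 TPM in lung libraries (0.40 ± 0.26, adjusted p = 0.235). Without tumor replicate 2 or without lung replicate 3, 4 of these hosts were higher, and 3 with a filter of 5 TPM. Under median-of-ratios rescaling 1 was lower.

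Genes for the proteins that bind snoRNAs rose nearly throughout. Of 14 tested, 13 were higher and 0 lower, against 31.6% and 27% of all tested genes. The list median was 2.01. The fits with 1 lung library left out called 12 or 13 genes of the list higher, and those with 1 tumor library left out called fewer. Nop58, a core protein of the box C/D particles, was at 94.9 and 87.8 TPM in tumor libraries and 13.3 to 17.1 TPM in lung libraries (2.56 ± 0.17, adjusted p = 0.00108). Nhp2, of the box H/ACA particles, was at 112 and 78.5 TPM against 12.3 to 15.5 TPM (2.65). Nolc1, which chaperones the particles in the nucleolus, was at 42.0 and 35.5 TPM in tumor libraries and 7.87 to 8.57 TPM in lung libraries (2.12), and Ruvbl1, an ATPase of their assembly, was at 34.5 and 29.9 TPM against 6.21 to 7.41 TPM (2.10). The gene that was not called was Znhit3, an assembly factor, at 7.44 and 5.79 TPM in tumor libraries and 0.835 to 3.67 TPM in lung libraries (adjusted p = 0.0682).

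Factors of nonsense-mediated decay, the pathway that removes spliced Gas5 and Snhg1, were higher for 7 and lower for 4 of 15 tested, with a median of 0.58, where 31.6% of all tested genes were higher and 27% lower. The count of higher factors was 4 under median-of-ratios rescaling and 2 at a fold limit of 2. Smg1, the kinase of the pathway, was at 13.8 and 14.7 TPM in tumor libraries and 32.1 to 43.4 TPM in lung libraries (-1.29 ± 0.19, adjusted p = 0.00401). Upf2, which links the exon junction to Upf1, was at 7.99 and 10.2 TPM in tumor libraries and 24.7 to 34.3 TPM in lung libraries (-1.55, adjusted p = 0.00348). Upf3a was higher, at 24.5 and 22.02 TPM in tumor libraries and 10.9 to 11.4 TPM in lung libraries (0.99 ± 0.15, adjusted p = 0.00433). Upf1, the helicase at the centre of the pathway, was at 33.5 and 29.6 TPM in tumor libraries and 22.9 to 30.9 TPM in lung libraries (adjusted p = 0.33). Without tumor replicate 2, 2 factors were higher, and without tumor replicate 3, 4 were.

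**Figure D3:**
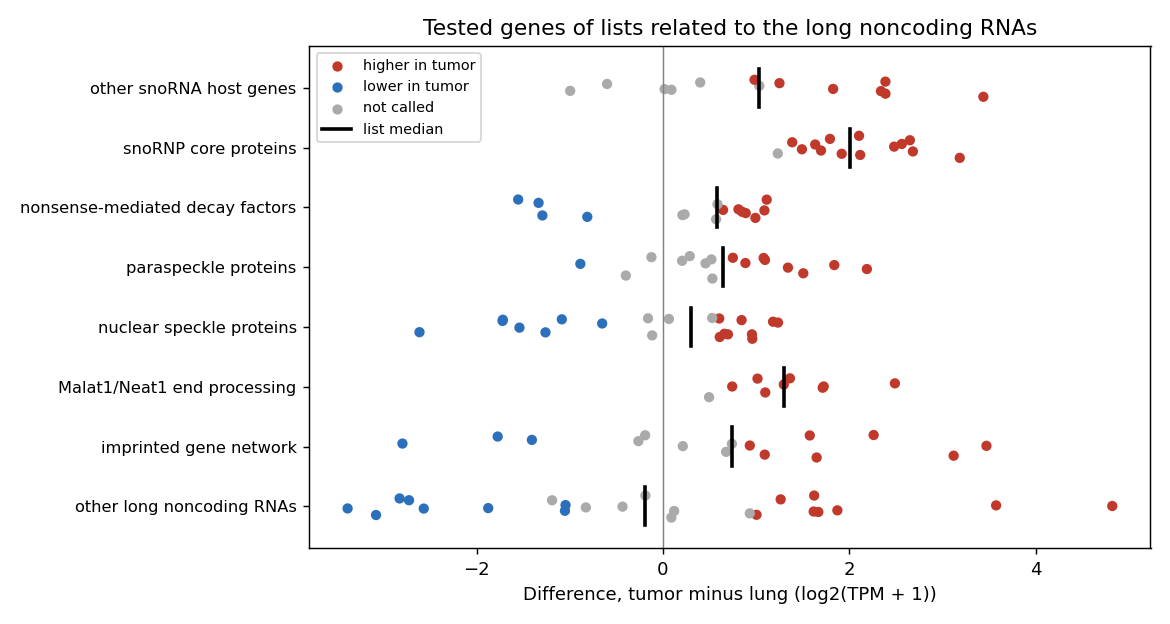
Differences, tumor minus lung on the log2(TPM + 1) scale, of the tested genes in 8 lists related to the long noncoding RNAs, 1 point per gene (red higher in tumor, blue lower, grey not called) with a bar at the list median. SnoRNP core proteins lie to the right of 0 with a median of 2.01, and nuclear speckle proteins spread to both sides with a median of 0.30, whereas 0 genes of the lists were lower after centring on the pan-leukocyte genes.

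H19 had the largest difference of the members. It was at 87.1 and 63.0 TPM in tumor and at 0.721, 2.87 and 0.548 TPM in lung. Both tumor values lay more than an order of magnitude above every lung value. The mean was 54.5-fold higher in tumor (75.1 ± 17.01 TPM, n = 2) than in lung (1.38 ± 1.29 TPM, n = 3), a difference of 5.11 ± 0.46 (adjusted p = 0.00147) that passed in every alternative setting and with every library left out. H19 lies on chromosome 7 from 142575529 to 142578143 on the minus strand. Mir675, the microRNA made from H19, was listed at 0 in every library, as were all 11 microRNAs listed for the H19 and Meg3 loci. For such short RNAs a value of 0 does not show absence.

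Igf2, the imprinted growth factor gene 72622 bases from H19 that shares its enhancers and is expressed from the paternal chromosome, was higher too. It was at 11.9 and 8.52 TPM in tumor and at 0.788, 3.08 and 0.693 TPM in lung. Lung replicate 2 was the highest lung library for both genes. The difference was 2.26 ± 0.47 (adjusted p = 0.0113), a call lost without tumor replicate 2 (adjusted p = 0.0979), tumor replicate 3 (adjusted p = 0.0606) or lung replicate 3 (adjusted p = 0.052).

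Meg3, whose RNA marks the maternal chromosome of the Dlk1 and Dio3 domain, stayed near 1 TPM. It was at 0.447 and 0.807 TPM in tumor and at 1.26, 1.91 and 0.560 TPM in lung. The groups overlapped, and when low genes were kept in the fit the difference was -0.43 (adjusted p = 0.428). Its neighbours were low too, though both stood above Meg3 in tumor replicate 2. Rian, a long noncoding RNA of the same domain, was at 1.77 and 0.584 TPM in tumor libraries and 0.939 to 1.93 TPM in lung libraries (adjusted p = 0.575), and Dlk1, a paternally expressed Notch-like ligand gene that was not tested, was at 2.73 and 0.259 TPM in tumor libraries and 0.105 to 0.200 TPM in lung libraries. The log2 ratio of H19 to Meg3 was 7.61 and 6.29 in tumor against -0.80, 0.58 and -0.03 in lung, a mean difference of 7.03 (exact permutation test, two-sided, p = 0.1, adjusted p = 0.2 over 6 ratios). Meg3 lies on chromosome 12 from 109541001 to 109571726 on the plus strand.

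Of 15 tested imprinted genes 7 were higher and 3 lower, against 31.6% and 27% of all tested genes. The list median was 0.74. Phlda2, a maternally expressed growth-restricting gene, was at 22.1 and 10.7 TPM in tumor libraries and 0.354 to 0.711 TPM in lung libraries (3.47 ± 0.36, adjusted p = 0.00179). Gnas, which encodes a stimulatory G protein subunit, was at 571 and 411 TPM against 149.9 to 162 TPM (1.65). Lower genes were Peg13, a noncoding RNA, at 2.96 and 2.97 TPM in tumor libraries and 12.5 to 12.7 TPM in lung libraries (-1.77), Impact, a translation regulator, at 6.77 and 14.6 TPM against 65.6 to 98.0 TPM (-2.79), and Nnat. Dcn, in this list and also a fibroblast marker, was at 63.7 and 10.7 TPM in tumor libraries and 1.64 to 3.06 TPM in lung libraries. Without tumor replicate 2, 3 imprinted genes were higher, and without tumor replicate 3 or lung replicate 2, 4 were.

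Pvt1 was scarce. It was at 3.34 and 1.88 TPM in tumor and at 0.999, 0.555 and 1.06 TPM in lung. The groups did not overlap, and the difference of 0.93 ± 0.32 missed the threshold (adjusted p = 0.0555). It passed without tumor replicate 3 (1.23, adjusted p = 0.0314). Pvt1 lies on chromosome 15 from 62037986 to 62378096 on the plus strand, with 47611 bases between it and Myc. Myc was at 15.4 and 10.8 TPM in tumor and at 4.74, 2.62 and 5.82 TPM in lung (1.41 ± 0.34, adjusted p = 0.0188). The Myc call ended without tumor replicate 2 (adjusted p = 0.148), tumor replicate 3 (adjusted p = 0.0704) or lung replicate 1 (adjusted p = 0.0574).

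Of 6 tested genes of the Myc family and its partners, Myc was higher and 4 were lower (Max, Mxd1, Mnt and Mga). Over all tested genes, 31.6% were higher and 27% lower. Mxd1, a Max partner that opposes Myc, was at 48.5 and 129.7 TPM in tumor libraries and 903 to 1163 TPM in lung libraries (-3.72 ± 0.44, adjusted p = 0.00234). Max, the shared partner, was at 37.4 and 93.3 TPM against 239 to 371 TPM (-2.37), and Mnt was at 10.7 and 11.8 TPM against 21.9 to 24.6 TPM (-1.01).

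Of 14 tested genes that neighbour the members, 8 were higher and 3 lower, against 31.6% and 27% of all tested genes. The list median was 0.77. Lsp1, a leukocyte actin-binding protein gene near H19, was at 70.1 and 127 TPM in tumor libraries and 1367 to 1598 TPM in lung libraries (-3.96, adjusted p = 0.00113). Wdr74, a ribosome assembly gene next to Snhg1, was at 38.6 and 24.2 TPM in tumor libraries and 5.20 to 7.95 TPM in lung libraries (2.15, adjusted p = 0.0032). Without tumor replicate 2, 3 neighbours were higher, and without tumor replicate 3, 5 were.

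**Figure D4:**
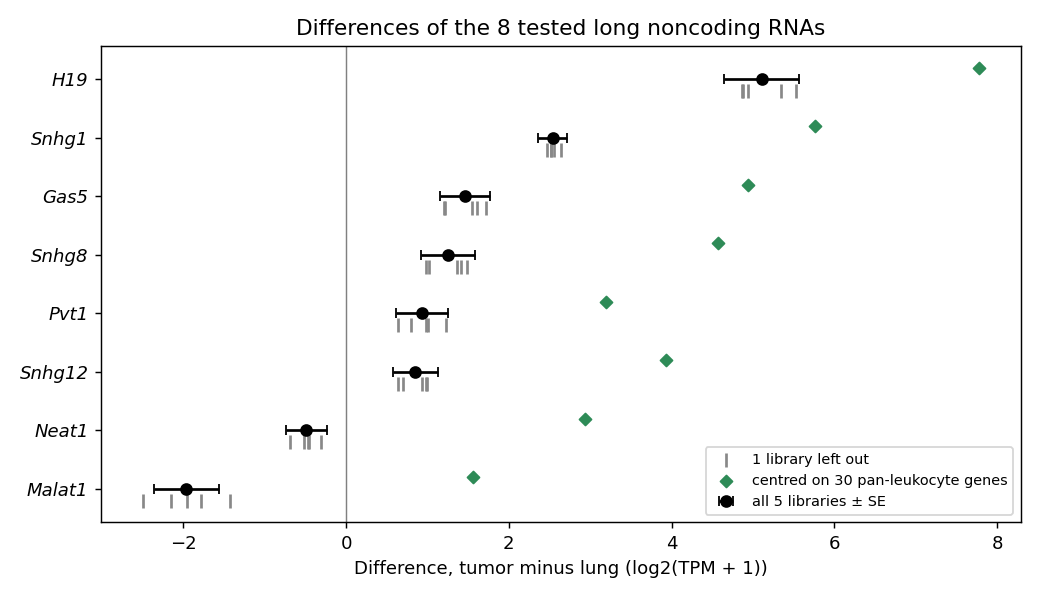
Difference of each tested long noncoding RNA, tumor minus lung on the log2(TPM + 1) scale, as black points ± SE with all 5 libraries, grey ticks with 1 library left out and green diamonds with libraries centred on 30 pan-leukocyte genes. Malat1 was at -1.96 with all libraries and at 1.56 after centring, while H19 was at 5.11 and 7.77. Centring moved the median of all tested genes to 2.99.

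Among 23 other tested long noncoding RNAs 8 were higher and 8 lower, with a median of -0.19, where 31.6% of all tested genes were higher and 27% lower, and 7.94% and 48.1% of annotated long noncoding RNAs. Some of the higher ones, Xist among them, passed the filter of 1 TPM only through their tumor values. With a filter of 5 TPM, 3 were higher. Dleu2, the host of miR-15a and miR-16-1, was at 11.2 and 13.6 TPM in tumor libraries and 117 to 179 TPM in lung libraries (-3.38 ± 0.24, adjusted p = 0.00111). Lncpint was at 1.06 and 2.63 TPM in tumor libraries and 13.0 to 20.9 TPM in lung libraries (-2.72). Without lung replicate 2 or lung replicate 3, 5 of these RNAs were lower. Xist, the RNA that silences 1 X chromosome in female cells, was at 24.3 and 35.3 TPM in tumor and at 0.217, 0.00293 and 0.0178 TPM in lung (4.82 ± 0.26, adjusted p = 0.000901). The lung libraries were at or near 0 for Xist. The labels do not give sex, and a difference of sex between the groups cannot be told apart from the difference between tumor and lung. Genes of the Y chromosome, looked up after the Xist values were seen, were detected in all libraries. Ddx3y was at 1.94 and 7.88 TPM in tumor libraries and 43.5 to 63.2 TPM in lung libraries (-3.33, adjusted p = 0.00444), and Eif2s3y was at 2.44 and 11.4 TPM in tumor libraries and 55.7 to 68.7 TPM in lung libraries (-3.24, adjusted p = 0.00638). The tumor library with the higher pan-leukocyte sum, replicate 3, had the higher value for both Y genes and also for Xist.

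Among the 2 tested genes whose profiles over the 5 libraries were closest to each member, by the distance between centred log2(TPM + 1) values among 12667 candidates, were Tpm2 and Il34 for H19, Ttc8 and Eif2s1 for Snhg1, S100a1 for Gas5, and Thoc7 and Nckap5l for Snhg8. Gapdh and Magoh were closest to Snhg12, Dus1l and Rnd2 to Pvt1, Brat1 and Pdpr to Neat1, Il1bos and Braf to Malat1, and Srd5a3 and Bcas3 to Meg3. Distances lay between 0.0558 (Gapdh) and 0.554 (Il34). Tpm2, the nearest to H19, was at 132 and 101 TPM in tumor libraries and 1.18 to 4.10 TPM in lung libraries.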

How the data were processed

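The authors ran Salmon 0.9.1 on GENCODE mouse M24 transcripts, per the labels' design text, and deposited TPM per gene, which sum to 1000000 in each library. TPM is a share, so a rise of some transcripts lowers all others. Of 55276 deposited rows, 26 carried spreadsheet dates in place of symbols (0.0650% to 0.0826% of the TPM total), which were dropped. The authors' deposited p-values and their false discovery rates were used only where named; their column of fold changes was not used. Tissue labels gave the groups, and titles the replicate numbers.

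Differences were tested two-sided with limma 3.58.1 (intensity trend) in R 4.3.3 on log2(TPM + 1), a scale that understates changes of low genes, with Benjamini-Hochberg adjustment over 16387 genes. The fit was run on simulated data with large changes planted in well expressed genes, which did not cover smaller changes or low genes. The members and all 13 related and 9 marker gene lists were chosen with earlier results of these data known, so they are described by counts and medians and give no independent support. Named genes are the members, up to 4 genes with the smallest p in each list, genome neighbours, the 2 nearest profiles per member, and genes that complete a count. Others were named after their values were seen: Zfas1, Upf1, Znhit3, Nnat, Sfpq, Dcn, Zbtb37, Ptprc and the Y genes. Predicted genes were passed over, and some genes that the rule names are not reported here.

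Coordinates and biotypes are from GENCODE M21 on GRCm38, matched by symbol for 98.5% of tested genes, M24 itself not being used here. Promoter sequences are RefSeq's on GRCm38.p6. Alternatives were pseudocounts, filters, 4 rescalings (trimmed mean of M values, median of ratios, without mitochondrially encoded genes, centred on 30 pan-leukocyte genes), trend and robust settings, fold limits, a replicate block and each library left out.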

Additional observations from a re-analysis of the deposited data

How the results depend on the processing

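H19 and Snhg1 passed as higher in all 18 alternative settings, at 4.86 to 7.77 and at 2.37 to 5.76. Centring on the pan-leukocyte genes changed most, since it moved the median of all tested genes to 2.99. It gave 11794 higher and 346 lower genes, 8 higher and 0 lower members, and 137 higher and 0 lower genes over the related lists (77 and 33 otherwise). It turned Malat1 to 1.56, Neat1 to 2.94, Rian to 1.90, Slc3a2 to 2.82, Upf2 to 1.78, Smg1 to 2.10, Srsf5 to 1.79, Son to 1.77, Clk1 to 0.88, Peg13 to 1.29, Impact to 0.59, Mnt to 2.33, Max to 1.13, Mga to 2.18, Slc25a45 to 1.59, Dleu2 to 0.042, Lncpint to 0.15, Rn7s1 and Rn7s2 to 2.06 and Rn7sk to 1.29, and Pvt1 passed at 3.20. Median-of-ratios rescaling (median of all genes -0.12) left 3 members higher, with Snhg8 at 1.08 and Snhg12 at 0.69 no longer called. Snhg12 also lost its call under TMM rescaling (0.74), a pseudocount of 0.01 (0.98), no filter (0.85), no trend (0.85) and a fold limit of 2 (0.85). Pvt1 passed without a trend (0.93) and without mitochondrially encoded genes (1.04, median of all genes 0.13). The cause of these changes was not tested.

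Leaving out 1 library gave 2 to 4 higher and 0 to 2 lower members, 3454 to 4669 higher and 2831 to 4179 lower genes, and 43 to 65 higher and 25 to 31 lower genes over the lists. Such fits hold fewer libraries, 1 tumor library where the other was left out, so a lost call need not mean dependence on a replicate. Differences then lay between -2.50 and -1.42 for Malat1, -0.68 and -0.31 for Neat1, 1.21 and 1.72 for Gas5, 0.98 and 1.49 for Snhg8, 0.64 and 1.00 for Snhg12, 0.63 and 1.23 for Pvt1, and -0.67 and 0.14 for Rian, and the Neat1 to Malat1 ratio between 0.89 and 2.03. With TPM + 1 in the ratios, H19 to Meg3 was 5.54 and Snhg12 to the host sum -0.72. With a replicate block from the numbers in the titles, Snhg12 was not called (0.93, adjusted p = 0.0696), 45 genes of the lists were higher (1 decay factor, 2 speckle, 4 end processing, 3 imprinted, 3 neighbouring and 0 Myc list genes), and 3662 genes in all were higher and 3449 lower. Deviations of same-numbered libraries correlated at 0.0034 and 0.083 across genes. The deviations of the 2 tumor libraries mirror each other, so this could not decide whether same numbers share an animal. The main fit took no pairs. TPM does not give the reads behind a gene, so the counting error of low values such as Meg3 and Pvt1 is not known.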
